A study of Mus musculus with 48 samples.

Results

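RNA-sequencing counts of 12 brain libraries whose titles name the prefrontal cortex (PFC) were compared, 6 of mice of the genotype APP and 6 of wild-type (WT) mice, out of 48 libraries in the series. Both groups carry the strain label C57BL/6J and an age label of 4 months, and the methods name male mice. The age wording in the titles also names other ages. The study's text describes its comparison of amyloid and WT mice at 3 months and in the dentate gyrus. Whether that comparison used these 12 libraries is not given in the sources used here. The genotype APP stands for an amyloid line whose transgenes, among them mutated human APP, are driven by the Thy1 promoter, so that production is neuronal. No treatment and no deletion of Fmn2 is labelled for either group. For levels alone, libraries of WT mice and of Fmn2 knockout mice of 3 and 8 months, labelled dentate gyrus, were set beside them. The comparison asks how the transcriptome of young amyloid-depositing mice differs from that of WT mice with the same age label.

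The amyloid precursor protein is cut by beta-secretase and then by gamma-secretase into the amyloid-beta peptides that aggregate in extracellular plaques. Microglia, the resident macrophages of the brain, gather around plaques and take on a plaque-associated state that depends on the receptor TREM2 and its adaptor TYROBP. Astrocytes near plaques become reactive and raise the intermediate filament protein GFAP.

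Between 23970623 and 31163948 reads were counted on genes in the APP libraries and between 16479658 and 25184663 in the WT libraries. Mitochondrially encoded genes took 3.99 to 5.05% of the reads in APP and 3.91 to 4.86% in WT libraries. No pair of libraries of a group agreed within sampling noise, with chi-square values per degree of freedom from 4.14 to 15.0 in APP and from 3.56 to 15.8 in WT pairs. All APP libraries were sequenced on lane 7 and all WT libraries on lane 5, so that lane and genotype cannot be told apart within these 12 libraries. The labels number the replicates without naming the animals, and p-values therefore measure the spread between these libraries. WT replicates 3 and 4 stood apart in genes of myelin, and results that rest on them are given with and without both.

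The tissue field of all 12 libraries names the dentate gyrus (DG), against the titles, and region markers were compared with other WT libraries of that tissue field, whose titles name no region (DG libraries below), as CPM (counts scaled to the size of the library) on a scale common to the whole series. Cux2, a marker of upper cortical layers, ranged from 105.9 to 128 CPM in APP and had a median of 116 CPM in WT libraries, against 12.2 to 30.7 CPM in the 5 WT DG libraries of 3 months. Tbr1, a transcription factor of deep-layer cortical neurons, ranged from 132 to 160 CPM in APP and from 55.8 to 84 CPM in these DG libraries. Not all genes of the cortical list were higher, as Neurod6, a transcription factor gene of excitatory neurons in cortex and hippocampus, ranged from 119 to 141 CPM in APP and from 88.8 to 152 CPM in WT libraries, against 335 to 445 CPM in DG libraries. The granule cell markers Prox1 and Dsp were far lower than in DG libraries. Prox1, the transcription factor of dentate granule neurons, ranged from 12.2 to 15.2 CPM in the APP libraries and from 11.4 to 20.4 CPM in WT libraries, against 194 to 253 CPM in DG. Dsp, the gene for desmoplakin, did not exceed 0.328 CPM in any of the 12 libraries and was at 123 to 174 CPM in DG. The 12 libraries are called PFC here after their titles. Of 19 cortical layer genes tested, edgeR and DESeq2 called 0 between APP and WT, with 2 higher and 4 lower at an unadjusted p under 0.05, a level that 13.9% of all tested genes reached (7.43% higher and 6.51% lower), and of 8 granule cell genes 0, with 2 higher at that level. Both tools also called 0 of 8 hippocampal pyramidal genes (2 higher at an unadjusted p under 0.05), of 11 striatal genes (1 higher and 2 lower), of 7 genes of olfactory regions (0) and of 6 of choroid plexus (1 higher).

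**Figure D1:**
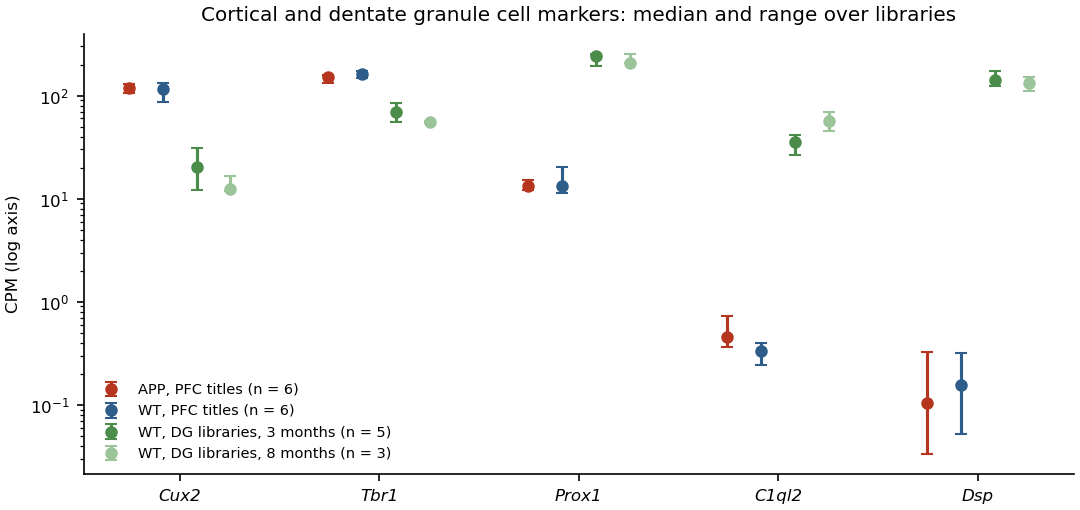
Level in CPM (log axis) of the cortical markers Cux2 and Tbr1 and the dentate granule cell markers Prox1, C1ql2 and Dsp in 4 groups, with the median as a point and the lowest and highest library as bars. APP and WT libraries titled PFC lie together, with medians of 118 and 116 CPM for Cux2, while the WT DG libraries are high in the 3 granule cell markers.

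The genes of the transgene design were read first. Thy1 (ENSMUSG00000032011, chromosome 9, 44043384 to 44048579 of mm10, plus strand), the neuronal surface glycoprotein gene whose promoter drives both transgenes, was at 1887, 2079 and 2426 CPM in the lowest, median and highest APP library and at 719, 762 and 775 CPM in WT. Every APP library lay far above every WT library. The log2 fold change was 1.48 (standard error, SE, 0.050, adjusted p = 5.88e-14; here and below edgeR quasi-likelihood p-values were adjusted after Benjamini and Hochberg). App (chromosome 16, 84949685 to 85173766, minus strand) was at 2771, 2911 and 3143 CPM in APP and 1816, 1917 and 1997 CPM in WT libraries. The groups did not overlap, and App was higher by 0.61 on the log2 scale (SE 0.038, adjusted p = 6.00e-10). The counts are on mouse genes, and how many of these reads came from the human transgenes or from Thy1 sequence in the expression cassette was not tested. Prnp, the prion protein gene, had overlapping groups with medians of 880 and 838 CPM (log2 fold change 0.07, adjusted p = 0.549). Fmn2, the actin nucleator that is deleted in other mice of the series, was at 96.1, 106.8 and 112 CPM in APP and 103.6, 104.6 and 113 CPM in WT libraries (log2 fold change -0.01, SE 0.044, adjusted p = 0.955).

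**Figure D2:**
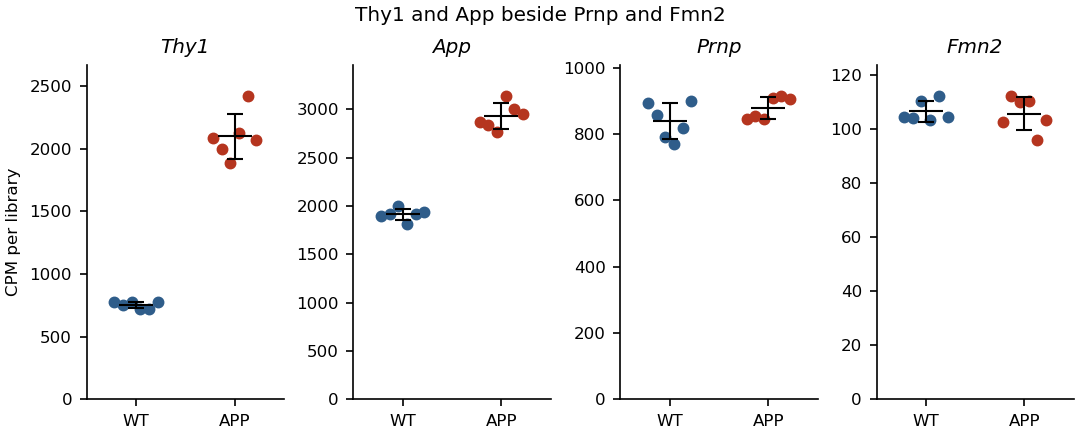
CPM of Thy1, App, Prnp and Fmn2 in each of 6 WT (blue) and 6 APP (red) libraries, with the mean and SD in black and axes from 0. The APP libraries lie above all WT libraries for Thy1 (1887 CPM and more against at most 775) and App, and the ranges of the groups overlap for Prnp and Fmn2.

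Other libraries without the APP genotype carry the same lane numbers, all labelled DG and all of another age. They are 7 libraries of 8 months with lane 7 (2 WT and 5 Fmn2 knockout) and 6 of 3 months with lane 5 (5 WT and 1 Fmn2 knockout), and whether they shared a sequencing run with the PFC libraries is not given in the sources used here. On the common scale Cst7 did not exceed 0.256 CPM in those of lane 7 or 0.31 CPM in those of lane 5, against 30.1 CPM or more in the APP libraries. Clec7a did not exceed 0.426 CPM and Itgax 0.641 CPM with lane 7. Thy1 ranged from 665 to 756 CPM with lane 7 and from 770 to 862 CPM with lane 5. App was also lower with lane 7 in the median (1411 against 1549 CPM). Ctsd, Tyrobp and Trem2 were higher with lane 7 in the median, with overlapping ranges. Their medians with lanes 7 and 5 were 172 and 135 CPM for Ctsd, 12.7 and 8.98 CPM for Tyrobp and 10.8 and 9.03 CPM for Trem2. The lowest APP libraries were at 354, 42.7 and 43.3 CPM for these 3 genes. Gfap, an astrocyte gene, ranged from 439 to 644 CPM with lane 7 and from 285 to 564 CPM with lane 5, against 179 to 295 CPM in the APP libraries. The part of lane in the differences between APP and WT libraries was not tested, since it cannot be told apart from genotype.

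Of 16733 genes tested, 385 were differentially expressed (adjusted p under 0.05 and a log2 fold change of at least 0.5 in size), which is 2.3% of those tested. A gene is called higher or lower below only when it passed both thresholds. 363 genes (2.17%) were higher and 22 (0.131%) lower in APP mice. 312 of the 363 higher genes and 14 of the 22 lower genes had no overlap between the groups, and among all tested genes every APP library lay above every WT library for 2.5% and below for 0.759%. 41 genes rose by 2 or more on the log2 scale, 136 by 1 to 2 and 186 by less than 1. The median log2 fold change of all tested genes was -0.00041. At any size of change 630 genes (3.77%) had an adjusted p under 0.05. DESeq2 called 409 genes higher and 45 lower. 110 of the 363 higher genes belonged to at least 1 of the 33 gene lists described below. The lists were chosen with earlier results of these data known, so their shares of called genes are descriptions and test nothing.

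**Figure D3:**
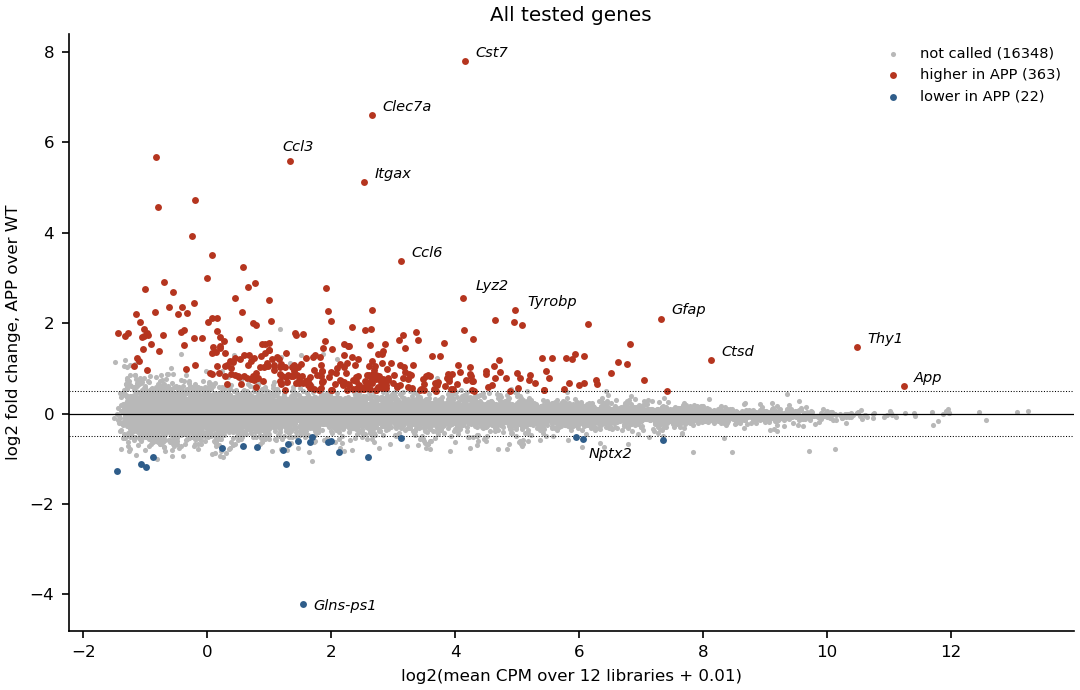
Log2 fold change of APP over WT libraries (y axis) against the log2 mean CPM over 12 libraries plus 0.01 (x axis) for all 16733 tested genes, with 363 called higher in red, 22 called lower in blue and the threshold of 0.5 as dotted lines. The called genes lie mostly above 0, led by Cst7 at 7.81, and Glns-ps1 at -4.21 stands alone at the bottom.

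Genes that microglia are known to induce around amyloid plaques held the largest changes. 34 of the 36 listed genes passed the filter on low counts, and 23 of them (67.6%) were called higher and 0 lower, with a median log2 fold change of 1.22. 25 had every APP library above every WT library. Among all tested genes 2.17% were called higher and 2.5% had every APP library above every WT library, shares that apply beside each list below. Cst7 (ENSMUSG00000068129, chromosome 2, 150570415 to 150578944, plus strand), which encodes the cathepsin inhibitor cystatin F, was at 30.1, 34.7 and 41.5 CPM in the lowest, median and highest APP library and at 0, 0.144 and 0.264 CPM in WT. It was nearly unread in WT, with 19 reads over the 6 libraries against 5957 in APP. The log2 fold change was 7.81 (SE 0.19, adjusted p = 9.93e-15), the largest of all tested genes, and the ratio of summed reads scaled to library size was 233 (95% counting interval 149 to 387). Clec7a, the beta-glucan receptor Dectin-1 gene, which the annotation calls a polymorphic pseudogene, was at 9.43, 12.7 and 14.8 CPM against 0, 0.128 and 0.264 CPM, without overlap (log2 fold change 6.61, SE 0.25, adjusted p = 1.86e-12). Itgax, the gene of the integrin CD11c, was at 9.97, 11 and 13.8 CPM against 0.179, 0.276 and 0.613 CPM (log2 fold change 5.11, SE 0.18, adjusted p = 5.88e-14). These 3 genes separated the groups completely and with wide gaps.

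Among the receptors, Trem2 (chromosome 17, 48346401 to 48354147, plus strand) was at 42.9, 56.0 and 62.9 CPM in APP and 12.2, 13.5 and 16.8 CPM in WT libraries. Its groups did not overlap, and it rose by 1.96 on the log2 scale (SE 0.10, adjusted p = 9.36e-10). Tyrobp, the gene of the adaptor through which TREM2 signals, was at 42.3, 50.5 and 65.5 CPM against 9.74, 10.4 and 11.5 CPM, also without overlap (log2 fold change 2.29, SE 0.087, adjusted p = 7.72e-13). Lyz2, the lysozyme gene of macrophages, was at 25.2, 30.7 and 35.1 CPM against 4.47, 5.14 and 5.62 CPM, a clear separation (log2 fold change 2.56, SE 0.090, adjusted p = 6.70e-14). Cd52, Ch25h and Lgals3bp rose by 2.77, 2.11 and 2.04 on the log2 scale. Not every member of the list was called. Apoe, the apolipoprotein gene, was at 720, 809 and 952 CPM in APP and 618, 680 and 729 CPM in WT libraries. Its groups overlapped, and its log2 fold change of 0.27 (SE 0.056, adjusted p = 0.00447) was under the threshold. Axl, a phagocytic receptor gene, had a log2 fold change of 0.47 (adjusted p = 0.00015), Gpnmb, a glycoprotein gene, one of 0.35 (adjusted p = 0.45) and Fth1, the ferritin heavy chain gene, one of -0.01. Spp1, the osteopontin gene, was called (0.52, adjusted p = 0.00856) but not without APP replicate 2 or 3, without WT replicate 1, 3 or 5, or with the length and GC correction, with or without the replicate block, since the fold change then missed the threshold.

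**Figure D4:**
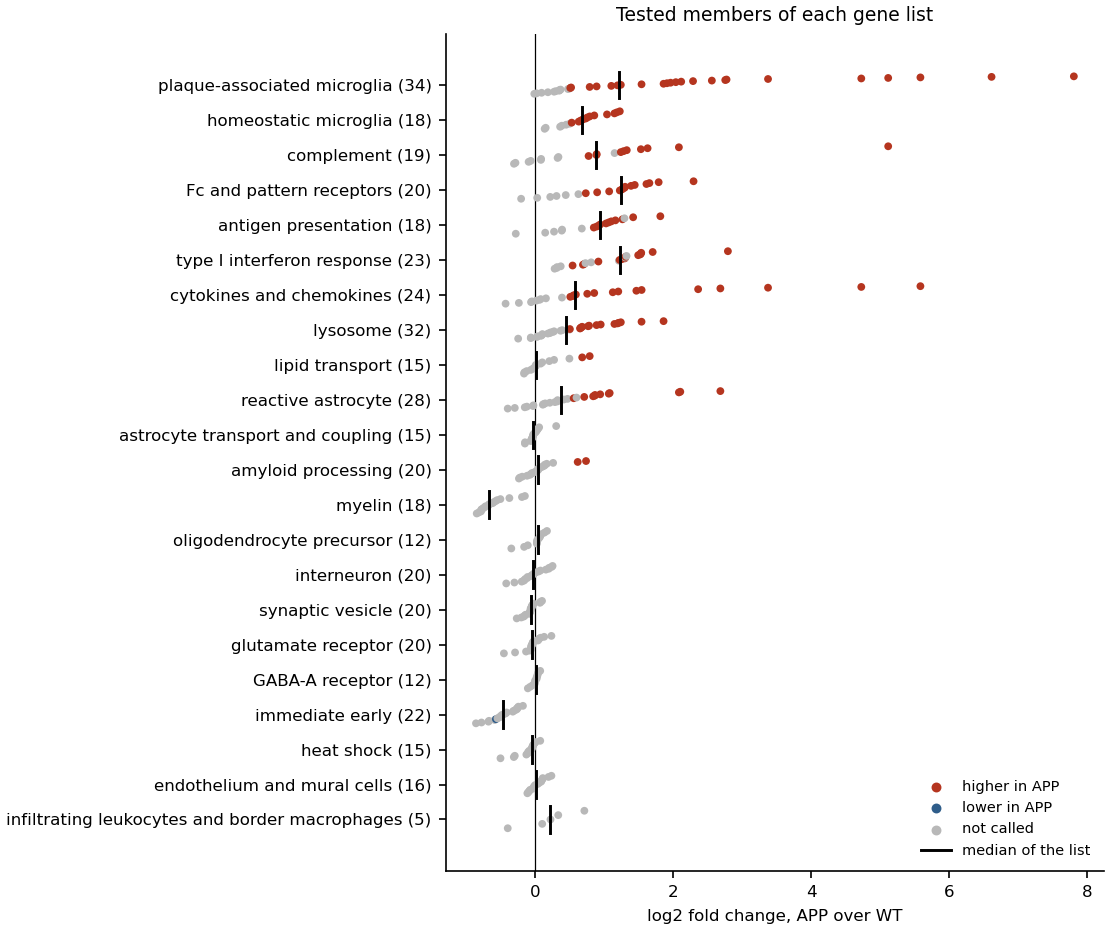
Log2 fold change of APP over WT libraries for every tested member of 22 gene lists, 1 point a gene, with the number of tested members in brackets, called genes in red (higher) or blue (lower) and the median of each list as a black bar. Microglial, complement, Fc and pattern receptor, antigen presentation and interferon lists extend to the right with medians from 0.67 to 1.24, the astrocyte transport, synaptic vesicle, glutamate and GABA-A receptor and endothelial lists have medians between -0.07 and 0.02, and the myelin and immediate early lists lie left of 0 with 0 and 1 genes called.

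Microglial genes of the resting state were higher as well. All 18 listed homeostatic genes were tested and had a positive log2 fold change, 12 of them (66.7%) were called higher and 0 lower, with a median of 0.67. The summed level of the list ranged from 1632 to 1817 CPM in APP and from 1183 to 1311 CPM in WT libraries, without overlap. Csf1r, the receptor on which microglia depend for survival, was at 139, 166 and 194 CPM against 92.5, 97.7 and 105.7 CPM, without overlap (log2 fold change 0.75, SE 0.064, adjusted p = 1.32e-07). Cx3cr1, the fractalkine receptor gene, was at 67.8, 78.7 and 86.0 CPM against 45.6, 50.3 and 53.8 CPM, also without overlap (0.63, SE 0.062, adjusted p = 5.95e-07). P2ry12, a purinergic receptor gene of resting microglia, was at 42.2, 50.5 and 59.4 CPM against 33.0, 34.9 and 39.8 CPM. Its change of 0.53 (adjusted p = 5.04e-05) was close to the threshold and fell below it without APP replicate 3, with the length and GC correction and with that correction and the replicate block. Tmem119, another marker of resting microglia, was not called, with a log2 fold change of 0.45 (adjusted p = 0.000443), although every APP library lay above every WT library. Mertk (0.14) and Mef2c (0.15, also expressed by neurons) were not called. In bulk tissue more cells of a type and more RNA per cell cannot be told apart, which holds for each of these lists.

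**Figure D5:**
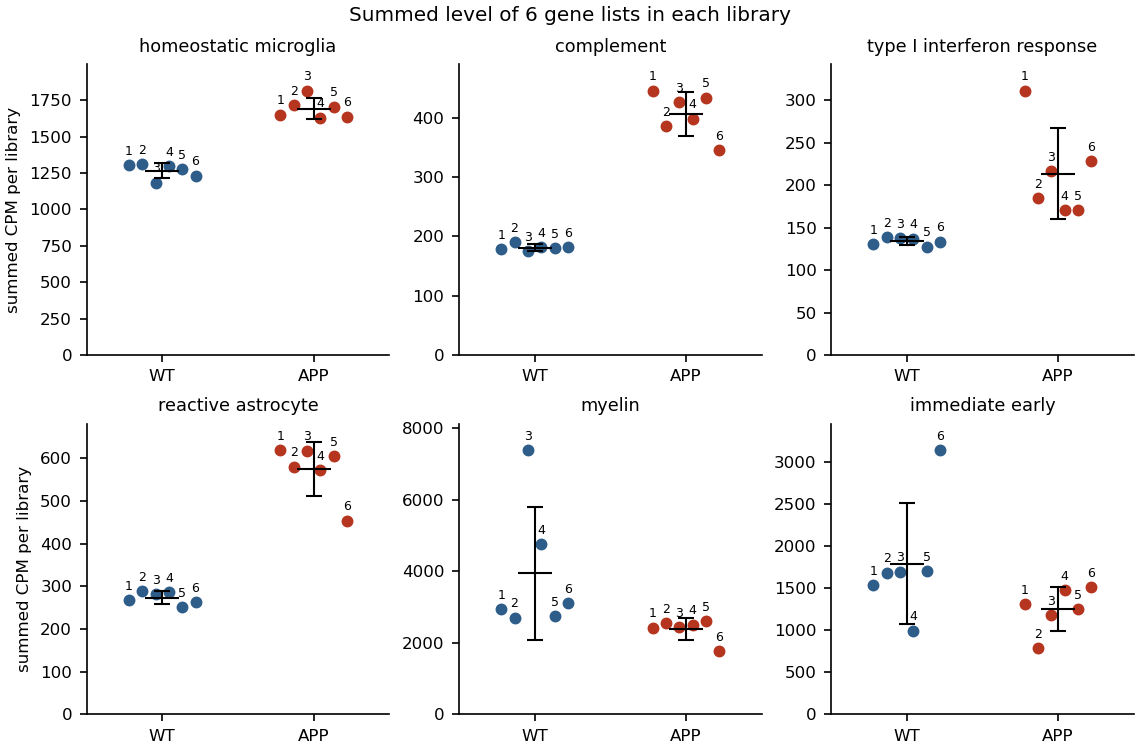
Summed CPM of 6 gene lists in each WT (blue) and APP (red) library, numbered by replicate, with the mean and SD in black and axes from 0. The homeostatic microglia (1632 to 1817 CPM in APP against 1183 to 1311), complement, interferon and reactive astrocyte lists separate the groups, APP replicate 1 is high in the interferon list, WT replicates 3 and 4 are high in the myelin list and WT replicate 6 in the immediate early list.

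Complement genes, which tag synapses and debris for uptake by microglia, were higher in part, among them the 3 chains of C1q and the receptor genes C3ar1 and C5ar1. 19 of 21 listed genes were tested, 10 (52.6%) were called higher and 0 lower, with a median of 0.89, and the summed level was 346 to 446 CPM in APP against 175 to 190 CPM in WT libraries. The genes of all 3 chains of C1q rose. C1qa was at 73.4, 87.4 and 102.3 CPM against 33.2, 34.5 and 36.6 CPM, without overlap (log2 fold change 1.33, SE 0.070, adjusted p = 1.82e-10). C1qb rose by 1.28 (SE 0.065, adjusted p = 4.52e-11) and C1qc by 1.24 (SE 0.080, adjusted p = 7.12e-09). C4b, a gene of the fourth component that astrocytes and oligodendrocytes express, was at 33.5, 41.5 and 47.6 CPM against 7.86, 8.07 and 14.2 CPM. The groups did not overlap (log2 fold change 2.08, SE 0.16, adjusted p = 2.08e-06), and reads of C4b and its near-identical copy C4a may have been split in counting. The anaphylatoxin receptor genes C3ar1 (1.53) and C5ar1 (0.89) were higher. C1ra and C1s1, the genes of the proteases of the first component, were not called (log2 fold changes -0.31 and -0.29, adjusted p = 0.444 and 0.397). C3, the central component, was low in both groups, at 0.328, 0.490 and 0.614 CPM against 0, 0.229 and 0.429 CPM, overlapped between them and was not called (log2 fold change 1.15, adjusted p = 0.11).

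Receptors for antibodies and for microbial patterns followed. 20 of 22 listed genes were tested, 14 were called higher and 0 lower, with a median of 1.24. Fcer1g, the signalling chain shared by Fc receptors, was at 14.8, 16.9 and 19.9 CPM against 6.56, 7.17 and 8.03 CPM, without overlap (log2 fold change 1.27, SE 0.087, adjusted p = 2.67e-09). The Fc receptor genes Fcgr1, Fcgr2b (the inhibitory receptor) and Fcgr3 rose by 1.25, 1.39 and 1.07. Fcgr4 did not pass the filter on low counts and was at 0.399, 0.597 and 0.734 CPM against 0, 0.124 and 0.306 CPM. Of the Toll-like receptors, Tlr2, the receptor for bacterial lipoproteins, rose by 1.79 (SE 0.15, adjusted p = 4.95e-08) and Tlr7, the receptor for single-stranded RNA, by 0.73 (adjusted p = 0.00152). Tlr4, the endotoxin receptor gene, had a log2 fold change of 0.63 that did not pass (adjusted p = 0.0932), and Tlr3 one of 0.22. Cd14, the endotoxin co-receptor gene, rose by 1.61, and Cd180, a Toll-like receptor homologue, by 2.29. Myd88, the adaptor of Toll-like receptors, was at 0.03.

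Genes of antigen presentation were higher in both classes of the major histocompatibility complex (MHC). All 18 listed genes were tested, 11 (61.1%) were called higher and 0 lower, with a median of 0.93. B2m, the light chain of MHC class I, was at 129, 141 and 186 CPM against 64, 69.7 and 75.2 CPM, without overlap (log2 fold change 1.102, SE 0.080, adjusted p = 8.59e-08). The class I heavy chains H2-D1 (0.94) and H2-K1 (0.92) were higher, and reads of these near-identical genes can be shared in counting. Class II was less even. Cd74, the invariant chain, was at 9.29, 15.8 and 23.9 CPM in APP and 2.64, 4.66 and 5.87 CPM in WT libraries. APP replicates 4, 5 and 6 lay at 20.9 CPM or more and replicates 1, 2 and 3 at 10.8 CPM or less, all above WT (log2 fold change 1.81, SE 0.31, adjusted p = 0.00596, and 0.0552 without WT replicates 3 and 4). H2-Ab1 rose by 1.26 (adjusted p = 0.00046), whereas H2-Aa (1.29, adjusted p = 0.106) and H2-Eb1 (0.67, adjusted p = 0.105) did not pass and overlapped.

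Genes of the type I interferon response, which viruses or nucleic acids induce, had a high median but a wide spread among the APP libraries. 23 of 24 listed genes were tested and had a positive log2 fold change, 14 (60.9%) were called higher and 0 lower, with a median of 1.22, and the count fell to 8 without WT replicates 3 and 4. Summed levels were 170 to 312 CPM in APP and 128 to 139 CPM in WT libraries. The APP libraries lay all above WT, with replicate 1 at 312 CPM and the others at no more than 228 CPM. Without APP replicate 1 the median was 0.94 and 13 genes were called. Ifitm3, an antiviral membrane protein gene, was at 9.81, 10.8 and 18.3 CPM against 5.58, 6.21 and 7.71 CPM, the highest value being that of APP replicate 1 (log2 fold change 0.91, SE 0.14, adjusted p = 0.000472). Ifit3, an interferon-induced RNA-binding protein gene, was at 5.86, 8.53 and 14.9 CPM against 2.86, 3.88 and 4.88 CPM (1.31, SE 0.27, adjusted p = 0.0171, not called without WT replicate 5 or without WT replicates 3 and 4). Irf7, the transcription factor that amplifies the response, was at 3.76, 4.81 and 12.3 CPM against 1.88, 2.54 and 3.43 CPM, without overlap, and did not pass (1.21, SE 0.31, adjusted p = 0.0521). It was called without APP replicate 1, 4 or 5, with the replicate block (with or without length and GC correction), with DESeq2, with upper-quartile normalisation and with a stricter low-count filter.

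Sequence at the starts of these genes was examined for 2 short motifs in 300 bases, from 250 before to 50 after the transcript start, taken from RefSeq (GRCm38.p6) on the strand of the gene. A promoter was matched for 12100 of the 16733 tested genes and for 273 of the 363 higher genes. The letters GAGGAAGT, a core that the myeloid factor PU.1 binds, were present on either strand in 408 of 12100 promoters (3.37%) and in 38 of 273 promoters of higher genes (13.9%). The letters GAAA, any pair of bases and GAAA again, of the kind in interferon-stimulated response elements, were present in 436 of 12100 (3.6%), in 33 of 273 promoters of higher genes (12.1%) and in 7 of the 9 matched promoters of called interferon genes (Bst2, Ddx58, Ifit3, Ifitm3, Oas1a, Rsad2 and Trim30a). A match is a description of these letters, not of binding. 3 promoters are shown with matched letters in capitals: Cst7 (chr2:150570165-150570464, plus strand), the gene with the largest rise, which held neither motif, Ctss (chr3:95526536-95526835, plus strand), the cathepsin S gene, with the PU.1-type letters on the minus and the interferon-type letters on the plus strand, and Ifit3 (chr19:34583279-34583578, plus strand), with 2 interferon-type matches on the minus strand.
Cst7: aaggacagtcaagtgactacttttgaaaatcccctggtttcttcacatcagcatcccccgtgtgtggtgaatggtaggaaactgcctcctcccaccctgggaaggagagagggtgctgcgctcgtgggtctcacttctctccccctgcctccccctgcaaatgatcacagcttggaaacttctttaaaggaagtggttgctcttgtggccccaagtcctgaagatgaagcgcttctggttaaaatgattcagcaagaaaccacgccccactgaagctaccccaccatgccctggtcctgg
Ctss: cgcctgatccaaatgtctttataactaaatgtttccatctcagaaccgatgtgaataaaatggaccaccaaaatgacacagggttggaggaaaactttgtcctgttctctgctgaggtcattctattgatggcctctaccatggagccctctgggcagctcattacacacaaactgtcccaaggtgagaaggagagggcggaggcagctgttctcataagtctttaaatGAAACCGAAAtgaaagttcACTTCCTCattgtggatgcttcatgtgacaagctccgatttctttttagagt
Ifit3: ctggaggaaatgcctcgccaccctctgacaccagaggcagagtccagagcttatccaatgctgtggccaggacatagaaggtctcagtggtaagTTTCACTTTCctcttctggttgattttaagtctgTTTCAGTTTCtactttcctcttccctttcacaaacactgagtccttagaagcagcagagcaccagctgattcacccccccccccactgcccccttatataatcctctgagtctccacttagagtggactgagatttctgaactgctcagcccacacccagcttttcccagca

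Several chemokine genes rose from near absence in WT libraries, and signals that neurons supply to microglia behaved differently. 24 of 33 listed cytokine and chemokine genes were tested, 15 (62.5%) were called higher and 0 lower, with a median of 0.57. Ccl3, the macrophage inflammatory protein-1 alpha gene, was at 3.22, 5.22 and 6.19 CPM against 0, 0.0893 and 0.208 CPM, with 820 reads over the APP and 12 over the WT libraries. The groups were far apart (log2 fold change 5.58, SE 0.33, adjusted p = 6.00e-10). Ccl4 was at 0.984, 1.59 and 2.45 CPM against 0, 0.0220 and 0.184 CPM (4.72, SE 0.46, adjusted p = 7.65e-07), and Ccl6 at 13.1, 16 and 18.8 CPM against 1.01, 1.29 and 2.44 CPM (3.37, SE 0.16, adjusted p = 1.59e-10). Il1a, the interleukin-1 alpha gene, rose by 1.47, Tgfb1 by 0.85 and Ccl12 by 2.36. Cxcl10, an interferon-induced chemokine gene, was higher by 2.68 with overlapping groups (SE 0.60, adjusted p = 0.0187). Csf1, a ligand of CSF1R, was at 31.6, 34.6 and 38.4 CPM against 22.7, 23.5 and 27.9 CPM, and its change of 0.51 (adjusted p = 2.39e-05) fell below the threshold without APP replicate 3 or 4 or WT replicate 1, 4, 5 or 6. Il34, the other CSF1R ligand gene, was at -0.05 (adjusted p = 0.79). Cx3cl1, the neuronal fractalkine gene, was at 782, 820 and 880 CPM in APP and 899, 976 and 1023 CPM in WT libraries. Every APP library was below every WT library, and the difference of -0.24 on the log2 scale (SE 0.042, adjusted p = 0.00112) was under the threshold in size.

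Lysosomal genes were higher in part. All 32 listed genes were tested, 15 (46.9%) were called higher and 0 lower, with a median of 0.44, and 20 had no overlap between the groups. Ctsd, the aspartic protease cathepsin D gene, was at 350, 383 and 461 CPM against 164, 172 and 175 CPM. This separation was wide (log2 fold change 1.19, SE 0.056, adjusted p = 8.67e-12). Cd68, a lysosomal glycoprotein gene of phagocytes, was at 24.4, 25.9 and 33.4 CPM against 6.86, 7.52 and 8.76 CPM (1.86, SE 0.088, adjusted p = 8.67e-12). Grn, the progranulin gene, was at 102.1, 121 and 128 CPM against 60.7, 64.5 and 67.8 CPM (0.89, SE 0.055, adjusted p = 6.00e-10). The cathepsins differed among themselves. Ctss rose by 1.54 and Ctsz by 1.24, followed by Ctsh (0.78) and Ctsc (0.77). Ctsl, at 0.496 (adjusted p = 4.32e-06), was just under the threshold and was called in 9 of 22 alternatives, Ctsa lay at 0.39, Ctso at 0.26, Ctsb at 0.18 and Ctsf at 0.08 (adjusted p = 0.566). Lamp1, the abundant lysosomal membrane protein gene, was at 244, 254 and 277 CPM against 219, 241 and 261 CPM, with overlap (0.10, adjusted p = 0.339), and Psap, the prosaposin gene, at 0.02. Lipid transport genes moved less. 15 of 18 were tested, and 2 (13.3%), the sterol carrier gene Npc2 (0.68, adjusted p = 2.59e-08) and the lipoprotein lipase gene Lpl (0.79, adjusted p = 0.00308), were called higher, with a list median of 0.0089. The cholesterol exporters Abca1 (0.20, adjusted p = 0.289) and Abcg1 (-0.12, adjusted p = 0.199) were not called.

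Several reactive astrocyte genes rose, and no gene of astrocyte transport was called. Of 32 listed reactive genes 28 were tested, 11 (39.3%) were called higher and 0 lower, with a median of 0.37, and the summed level was 454 to 620 CPM in APP and 251 to 289 CPM in WT libraries. Several of the called members, such as H2-D1 and Psmb8, are also antigen presentation genes that other cells express. Gfap (chromosome 11, 102887336 to 102900912, minus strand) was at 177, 267 and 296 CPM against 50.03, 60.8 and 69.7 CPM. APP replicate 6 was the lowest of its group and still above all WT libraries (log2 fold change 2.10, SE 0.14, adjusted p = 1.14e-06). Osmr, the oncostatin M receptor gene, was at 6.28, 6.94 and 7.37 CPM against 3.03, 3.94 and 4.35 CPM (0.84, SE 0.098, adjusted p = 7.17e-06), and Ggta1 and Gbp2 rose by 0.86 and 0.71. Vim, the vimentin gene, was at 26.6, 33.9 and 34.8 CPM against 21.3, 24.3 and 29.6 CPM, overlapped through APP replicate 6 and was not called (0.41, adjusted p = 0.00153). Serpina3n, an acute-phase protease inhibitor gene, was not called either (0.47, adjusted p = 0.0369), but was past both thresholds without APP replicate 6, without WT replicate 3 and without WT replicates 3 and 4. Among 15 genes of astrocyte transport and coupling, edgeR and DESeq2 called 0, and 1 gene in each direction had an unadjusted p under 0.05. The higher one, the water channel gene Aqp4, was at 94.6, 108 and 121 CPM against 78.0, 86.7 and 93.2 CPM, without overlap (0.30, SE 0.057, adjusted p = 0.00183). Gja1, the connexin 43 gene, was at 0.03 and the glutamate transporter genes Slc1a2 and Slc1a3 were at -0.05 and 0.06.

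The amyloid processing list was otherwise quiet. All 20 genes were tested, 2, App among them, were called higher and 0 lower, with a median of 0.04. Bace1, the beta-secretase gene, was at 103.5, 114 and 126 CPM against 103.7, 112 and 118 CPM, with overlap (log2 fold change 0.04, adjusted p = 0.831). The gamma-secretase subunit genes Ncstn (0.02), Psenen (-0.08) and Aph1b (-0.01) were not called, nor were the App relatives Aplp1 (-0.06, adjusted p = 0.542) and Aplp2 (-0.05, adjusted p = 0.628). Ece1, an amyloid-degrading protease gene, was at -0.22 (adjusted p = 0.00774), under the threshold in size, and the proteases Mme (0.17, adjusted p = 0.638) and Ide (0.26, adjusted p = 0.764) were not called.

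Lists of neurons held few or 0 called genes. Of 20 synaptic vesicle genes edgeR and DESeq2 called 0, with 17 log2 fold changes negative, a median of -0.07 and 5 at an unadjusted p under 0.05, all lower. Their summed level was 18086 to 19642 CPM in APP and 19853 to 20502 CPM in WT libraries, so that every APP library lay below every WT library by a small margin. Cplx2, the complexin 2 gene, was at 1107, 1172 and 1265 CPM against 1225, 1332 and 1553 CPM, with overlap (log2 fold change -0.20, SE 0.051, adjusted p = 0.0257). Of 20 interneuron genes 0 were called by either tool, 2 higher and 4 lower at an unadjusted p under 0.05, and Sst, the somatostatin gene, was at 133, 146 and 158 CPM against 158, 170 and 177 CPM (-0.20, SE 0.048, adjusted p = 0.0192). Of 20 glutamate receptor genes 0 were called, 2 higher and 3 lower at an unadjusted p under 0.05, and of 12 GABA-A receptor genes 0 were called and 0 had an unadjusted p under 0.05 (medians -0.05 and 0.01). The 17 clock genes, 15 glucocorticoid targets and 15 heat shock genes tested had 0 called by edgeR and DESeq2 and 0 at an unadjusted p under 0.05.

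Immediate early genes, which neuronal firing induces within minutes, were all on the lower side, with 1 called. The 22 tested genes had log2 fold changes from -0.86 to -0.18 with a median of -0.47, 6 at an unadjusted p under 0.05 and 1, Nptx2, called lower by edgeR and by DESeq2. Nptx2, which encodes a secreted pentraxin that clusters AMPA receptors at synapses (chromosome 5, 144545902 to 144557478, plus strand), was at 40.3, 51.9 and 64.7 CPM in APP and 69.9, 78.0 and 98.2 CPM in WT libraries. The groups did not overlap, and Nptx2 fell by 0.57 on the log2 scale (SE 0.12, adjusted p = 0.0139), which is not called without APP replicate 2, without WT replicate 2 and with the replicate block, with or without length and GC correction. The list as a whole rested on a few libraries. WT replicate 6 had a summed level of 3146 CPM and the other WT libraries 993 to 1700 CPM, APP libraries 788 to 1509 CPM, and without WT replicate 6 the median was -0.19. Fos ranged from 6.68 to 40.4 CPM in APP and from 9.18 to 107.1 CPM in WT libraries (-0.68, SE 0.55, adjusted p = 0.678).

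Myelin genes were lower in the median, without any call. 18 of 18 had a negative log2 fold change, the median was -0.67, 14 had an unadjusted p under 0.05 (against 6.51% of all tested genes in that direction), and edgeR and DESeq2 called 0. Mag, the myelin-associated glycoprotein gene, was at 41, 65.7 and 72.8 CPM in APP and 66.2, 79.2 and 197 CPM in WT libraries, with overlap. The highest WT values were 197 CPM in replicate 3 and 141 CPM in replicate 4, and APP replicate 6 was the lowest library (log2 fold change -0.74, SE 0.29, adjusted p = 0.279). Over the list WT replicates 3 and 4 had 7387 and 4760 CPM and the other WT libraries 2698 to 3098 CPM, against 1754 to 2604 CPM in APP libraries. Without WT replicates 3 and 4 the median was -0.23. The same 2 libraries had the highest summed level of striatal neuron genes (387 and 367 CPM against 304 to 328 CPM in the other WT and 287 to 316 CPM in APP libraries) and the lowest of hippocampal pyramidal genes (168 and 204 CPM against 226 to 251 and 235 to 262 CPM). The part of dissection or of oligodendrocyte content in these differences was not tested. Of 12 oligodendrocyte precursor genes 0 were called by either tool and 1, lower, had an unadjusted p under 0.05 (median 0.04).

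Of the 22 lower genes 14 were protein-coding and 8 were pseudogenes or long non-coding RNAs. Glns-ps1, a processed pseudogene of glutamine synthetase on chromosome 11 (19720355 to 19721472, plus strand), was at 0.195, 0.287 and 0.384 CPM in APP and 0.719, 6.84 and 10.1 CPM in WT libraries. WT replicates 2 and 6 lay at 0.719 and 0.835 CPM and the other 4 at 6.75 CPM or more, all above APP (log2 fold change -4.21, SE 0.77, adjusted p = 0.00962). Its reads can be shared with the parent gene in counting. Of the protein-coding genes, Krt80, a keratin gene, was at 1.82, 4.51 and 5.13 CPM against 6.39, 8.10 and 10.1 CPM (-0.96, SE 0.19, adjusted p = 0.00807), and Lgr5, the R-spondin receptor gene, at 1.18, 1.70 and 2.00 CPM against 2.29, 3.03 and 3.62 CPM (-0.81, SE 0.16, adjusted p = 0.00269), both without overlap. Chrnb3, a nicotinic receptor subunit gene, fell by 1.11 with overlapping groups. Hcrtr1, the orexin receptor 1 gene, was at 2.11, 3.03 and 3.89 CPM against 4.00, 4.30 and 5.94 CPM (-0.63, SE 0.15, adjusted p = 0.0139). Without WT replicates 3 and 4, 13 of the 22 genes were no longer called, among them Krt80, Hcrtr1, Nxf7, Gm3294 and Trhr2, and 9 were, among them Lgr5, Chrnb3, Nptx2 and Gm34583. Of the 13, Gm3294 (log2 fold change -0.47, adjusted p = 0.0084) missed only the threshold in size, as did Nefh and Inf2, given next. Nefh, the heavy neurofilament gene, was at 42.4, 49.3 and 61 CPM against 61.8, 68.9 and 99 CPM (-0.51, SE 0.12, adjusted p = 0.0378), and 14 of the 22 alternatives run did not call it. Without WT replicates 3 and 4 its log2 fold change was -0.37 (adjusted p = 0.0246). Inf2, an actin-regulating formin like Fmn2, was at 119, 131 and 151 CPM against 149, 179 and 268 CPM. WT replicates 3 and 4 were highest (268 and 238 CPM), the groups overlapped, and 16 of 22 alternatives did not call it (-0.58, SE 0.14, adjusted p = 0.0451). Without these 2 libraries its log2 fold change was -0.36, under the threshold in size, with an adjusted p of 0.0039. Inf2 was the 1 member of 18 formin and actin nucleation genes that was called, in either direction, and 3, all lower, had an unadjusted p under 0.05.

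Among higher genes outside the lists, Mpeg1, the perforin-2 gene of macrophages, was at 94.8, 113 and 129 CPM against 26.5, 28.3 and 31 CPM, without overlap (log2 fold change 1.98, SE 0.081, adjusted p = 3.89e-11). Stard4, a sterol carrier gene, was at 56.9, 64.2 and 71.1 CPM against 38.6, 44.7 and 49.5 CPM (0.55, SE 0.064, adjusted p = 7.76e-06). Sparc, a matrix glycoprotein gene of microglia, astrocytes and vessels, was at 175, 197 and 223 CPM against 127, 137 and 166 CPM (0.51, adjusted p = 5.02e-05), and fell below the threshold without APP replicate 3 or 5 or WT replicate 1, 2 or 5. 40 higher genes had under 1 CPM in the mean. Of these, Tnfsf8, the CD30 ligand gene, had 183 reads over the APP and 2 over the WT libraries, a ratio of 68 scaled to library size, with a 95% counting interval from 18.6 to 566. Hcar2, the niacin receptor gene, was at 0.738, 1.102 and 1.38 CPM against 0, 0.0419 and 0.118 CPM (4.58, SE 0.39, adjusted p = 5.84e-08). SLAM family receptor genes of leukocytes were among the 20 largest changes past 1 CPM, with Ly9 at 3.24, Slamf9 at 2.51 and Cd48 at 2.26, as were Siglecf (2.56), St14 (2.89), Slc15a3 (2.27) and Gm49339 (3.52).

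Markers of other cell types were read beside the microglial genes, many of which blood macrophages also express. Of 17 markers of leukocytes other than microglia and of border macrophages, 5 passed the filter on low counts and 0 were called by edgeR or DESeq2, with 2, both higher, at an unadjusted p under 0.05. Their summed level was 9.94 to 13.6 CPM in APP and 8.76 to 13.2 CPM in WT libraries. The monocyte gene Ly6c2 was at 0 in 2 APP and 4 WT libraries, and the T cell gene Cd3e in 0 and 2, with medians of 0.0732 and 0.0423 CPM. The cytotoxic lymphocyte gene Nkg7 was at 0 in 0 APP and 5 WT libraries (medians 0.0882 and 0 CPM) and Cd8a, of cytotoxic T cells, in 1 and 4 (medians 0.0999 and 0 CPM). The part of such cells in the higher immune genes was not tested. The monocyte chemokine receptor gene Ccr2 was at 0.192, 0.347 and 0.693 CPM against 0.0519, 0.356 and 0.483 CPM. The 5 red blood cell genes were tested with 0 called by edgeR and 1 higher by DESeq2, Hba-a1 being at 2.57, 3.55 and 5.90 CPM against 2.00, 2.63 and 2.86 CPM (log2 fold change 0.61, adjusted p = 0.0502). Of 12 genes of meninges and fibroblasts 12 were positive with a median of 0.31, 0 were called and 1 had an unadjusted p under 0.05. Of 16 endothelial and mural cell genes 0 were called and 0 had an unadjusted p under 0.05 (median 0.02). Ttr, the choroid plexus transthyretin gene, did not exceed 1.1 CPM in APP or 2.23 CPM in WT libraries.

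Relations among the 6 APP libraries were computed for 3 pairs of genes on log2(CPM + 0.5). App and Cst7 had a Pearson r of -0.20 (exact permutation p = 0.714, two-sided) and a Spearman rho of -0.14 (exact permutation p = 0.803). Cst7 and Gfap had r = 0.49 (exact p = 0.328) and rho = 0.60 (exact p = 0.242). App and Thy1 had r = 0.64 (exact p = 0.192) and rho = 0.89 (exact p = 0.0333), with Benjamini-Hochberg adjusted values over the 3 pairs of 0.492 and 0.10. The adjusted values of the other pairs were 0.363 or higher. Without the 2 libraries farthest from the median of the x gene, r was 0.74, -0.096 and 0.84, and the sign turned for both pairs with Cst7, whose values rest on those libraries.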

How the data were processed

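RNA was extracted with TRIZOL, and TruSeq mRNA libraries were sequenced. For the authors' tables, STAR alignments to mm10 were assigned to genes by HTSeq, and the deposited values are raw counts per gene and library, neither normalised nor pooled. How reads of near-identical gene copies were assigned is not given in the sources used here. Of 48709 gene identifiers 48349 were matched to GENCODE M21 for names and positions.

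Counts of the 6 APP and 6 WT libraries titled PFC were fitted together in edgeR 4.0.16 (R 4.3.3) with TMM normalisation, the default low-count filter (filterByExpr, minimum count 10) and robust quasi-likelihood tests, without covariates, since lane coincides with genotype. P-values were Benjamini-Hochberg adjusted over all 16733 tested genes. A gene was called at an adjusted p under 0.05 and a log2 fold change of at least 0.5 in size. CPM values are on TMM-normalised library sizes. Counting intervals are exact at 95%, and cover counting error only. Depth was 16479658 to 31163948 reads. On simulated counts for 16604 genes in this comparison, 80.6% of genes changed by 0.75 on the log2 scale and 99% of those changed by 1.5 were recovered, with 3 false calls. The simulated counts were drawn independently for each gene and library, without a lane effect or libraries that stand apart. They therefore do not show how many false calls such features would add.

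Alternatives were DESeq2 1.42.0, other normalisations and filters, a replicate block, a length and GC correction, reads drawn down to the shallowest library, each library left out in turn, and, added after the data were seen, WT replicates 3 and 4 left out. Named genes were App, Thy1, Prnp, Fmn2, Trem2, Tyrobp, Apoe, Gfap and Cst7, the 20 largest rises and up to 10 largest falls without overlap and with at least 1 CPM in the mean, up to 4 called members of each list with the smallest p (the 1 with the smallest p where none was called), further members of described families (not all of the cathepsins), up to 3 called genes under 1 CPM and up to 5 abundant called genes in no list. Other genes were named after their values were seen, and some genes that the rule selects are not reported here. The members and the 33 gene lists were chosen with earlier results of these data known.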

Additional observations from a re-analysis of the deposited data

Results flagged for a closer look

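Among 292 gene and group combinations, 20 held a library whose gap to its nearest neighbour exceeded 0.625 of the group's range (Dixon's limit for 6 values). Chance gives about 1 in 20 such combinations, and genes that move together are not separate evidence.

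APP replicate 6 was the lowest APP library for Gfap (177 CPM, group median 267), Vim (26.6 CPM, median 33.9), the myelin genes Mbp (558 CPM, median 851) and Mag (41.0 CPM, median 65.7), and Krt80 (1.82 CPM, median 4.51). APP replicate 1 was the highest for the interferon genes Ifitm3 (18.3 CPM, median 10.8) and Irf7 (12.3 CPM, median 4.81). APP replicate 5 was the highest for Fcrls (74.3 CPM, median 56.3), Ctsb (811 CPM, median 701) and Clu (787 CPM, median 666).

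WT replicate 6 was the highest WT library for the immediate early genes Fos (107.1 CPM, median 34.3) and Npas4 (73.7 CPM, median 32.1). WT replicate 3 was the highest for Cryab (97.3 CPM, median 53.3), Dapk2 (2.39 CPM, median 1.32) and Ifi27l2a (0.858 CPM, median 0.306). WT replicate 4 was the highest for Slco1c1 (82.2 CPM, median 67), P2ry12 (39.8 CPM, median 34.9), Ifitm3 (7.71 CPM, median 6.21) and Havcr2 (4.18 CPM, median 3.14). WT replicate 1 was the lowest for C1qb (35.7 CPM, median 40.1).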

How the results depend on the processing

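The number of genes called was 385 and stayed within 338 and 457 under the other normalisations, filters, corrections and left-out libraries. It was 630 without a threshold on the log2 fold change and 182 with a threshold of 1. With each library left out in turn it was 353 to 389. The number of lower genes, 22, was 45 with DESeq2 and 38 with no low-count filter, and 16 to 33 with each library left out (33 without WT replicate 2). Of 92 named genes that were called, 76 were called in the same direction under every alternative in which they were tested, of 22 run. Some of them were not tested in all 22. Of 58 named genes not called, 8 were called under at least 1 alternative.

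Same-numbered APP and WT libraries did not deviate together in the mean (mean r 0.0050, from -0.17 to 0.19, against -0.0009 for different numbers). 2 of 6 APP libraries were closest to their own number. The labels do not say whether the numbers pair the samples, and 6 pairs are too few to exclude a weak pairing. With the replicate block 374 genes were called (359 higher and 15 lower, 360 shared with the fit without it), and 376 with the block and a length and GC correction.

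Fmn2 (-0.01) turned to 0.0021 with the length and GC correction, 0.0016 with block and correction, 0.016 without APP replicate 5 and 0.0036 without WT replicate 5 (range with 1 library left out -0.029 to 0.016). Aldh1l1 turned to -0.00068 with DESeq2, -0.00063 with RLE normalisation, and without 1 library to -0.0025 (APP replicate 3), -0.015 (APP 4), -0.00098 (APP 5), -0.027 (WT 1), -0.032 (WT 5) and -0.027 (WT 6), with a range of -0.032 to 0.058. These values are near 0, and the cause was not tested. With each APP library left out, r was -0.58 to 0.27 for App and Cst7 (0.27 without replicate 3), 0.35 to 0.80 for Cst7 and Gfap (0.80 without replicate 2, exact permutation p = 0.0333) and 0.43 to 0.90 for App and Thy1 (0.90 without replicate 4 and 0.82 without replicate 5, exact permutation p = 0.0333 for both). The p-values of these correlations with 1 library left out are unadjusted and are given for high values of r only. With all 6 APP libraries the exact permutation p of r was 0.328 for Cst7 and Gfap and 0.192 for App and Thy1. Lane and genotype cannot be told apart under any of these settings.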

Other observations

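Several further genes were picked after their values were seen because they were higher in the APP libraries, and stand for no group. Lag3, an inhibitory receptor gene, was at 19.1, 21.1 and 23 CPM in the lowest, median and highest APP library and 6.37, 6.97 and 8.68 CPM in WT, without overlap (log2 fold change 1.55, SE 0.081, adjusted p = 4.92e-11). Pdcd1, the PD-1 gene, had 264 reads over the APP and 12 over the WT libraries, a ratio of 16.3 scaled to library size (95% counting interval 9.20 to 32.0). Havcr2, the TIM-3 gene, rose by 1.21 and Cd274, the PD-L1 gene, by 0.71, both without overlap. The transcription factor genes Irf8 and Spi1, which set myeloid identity, rose by 1.45 and 1.01. Mki67, a gene of dividing cells, was at 1.52, 2.14 and 2.29 CPM against 0.878, 1.13 and 1.78 CPM, with overlap (0.78, SE 0.18, adjusted p = 0.0112), and was not called when reads were drawn down to the shallowest library.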
